A study of Mus musculus with 52 samples.

Results

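The genes described are the keratins and the keratin-associated protein genes, taken as every gene whose symbol begins with Krt or Krtap followed by a number and whose longest listed transcript was at least 250 bp. This gave 105 genes of the 23043 kept: 28 type I keratins, 24 type II keratins and 53 keratin-associated genes. They lay in 5 clusters, with 49 members on chromosome 11, 25 on chromosome 15, 23 on chromosome 16, 5 on chromosome 7 and 3 on chromosome 10. The cells were immortalized mouse embryonic fibroblasts homozygous for a conditional allele of MLL2, a histone H3 lysine 4 methyltransferase. F/F cells have no treatment in their labels. FC/FC cells were the same line exposed for 24 h to tamoxifen, which excises the floxed MLL2 exons, then, by the study's general methods, washed and grown on for several days before harvest, so that genotype and tamoxifen cannot be told apart. Histone H3 carrying 1, 2 or 3 methyl groups on lysine 4 (H3K4Me1, H3K4Me2 and H3K4Me3) was mapped by ChIP-seq in 3 libraries of each genotype for each mark, 18 libraries in all. All rest on 1 conditional line, and the p-values measure the spread between these libraries. RPKM was taken over a whole transcript, from which the excision itself cannot be read.

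Keratins are the intermediate filament proteins of epithelia and build filaments as pairs of a type I and a type II chain, with different pairs in simple epithelia, in the layers of the epidermis and in hair. Keratin-associated proteins form the matrix between keratin filaments in the hair shaft. Fibroblasts use vimentin in place of keratins. H3K4Me3 marks active start sites, H3K4Me1 marks enhancers and the flanks of promoters, and H3K4Me2 is found at both.

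Sequence is shown first for the start sites and regions that the results turn on. The first 3 are promoters of neighbouring keratin-associated genes on chromosome 11, all on the minus strand: Krtap2-4 (chr11:99614797-99615096), whose H3K4Me2 peak was called in F/F but not in FC/FC, and Krtap1-5 (chr11:99580967-99581266) and Krtap4-2 (chr11:99635035-99635334), whose peaks were called in both. The fourth is the promoter of Krt7 (chr15:101412153-101412452, plus strand), which had no TATAAA but 21 CG dinucleotides. Each runs from 250 bases before to 50 after the start, on GRCm38.p6 from RefSeq, which is the build of the peak files (mm10). Capitals mark TATAAA on either strand, and no match to TGANTCA lies in these 4 windows. N is any base, so TGANTCA is wider than the AP-1 motif TGA[C/G]TCA.
Krtap2-4 promoter: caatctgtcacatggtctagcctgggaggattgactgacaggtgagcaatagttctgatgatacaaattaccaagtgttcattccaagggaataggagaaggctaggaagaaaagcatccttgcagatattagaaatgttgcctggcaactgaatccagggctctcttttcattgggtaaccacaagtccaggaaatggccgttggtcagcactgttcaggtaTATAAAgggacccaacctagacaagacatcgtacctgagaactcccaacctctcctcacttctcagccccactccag
Krtap1-5 promoter: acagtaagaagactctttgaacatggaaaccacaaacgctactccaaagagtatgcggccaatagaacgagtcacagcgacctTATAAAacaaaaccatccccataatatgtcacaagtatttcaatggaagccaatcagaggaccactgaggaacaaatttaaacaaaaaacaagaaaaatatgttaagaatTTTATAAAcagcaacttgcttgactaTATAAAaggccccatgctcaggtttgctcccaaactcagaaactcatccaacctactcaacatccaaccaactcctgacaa
Krtap4-2 promoter: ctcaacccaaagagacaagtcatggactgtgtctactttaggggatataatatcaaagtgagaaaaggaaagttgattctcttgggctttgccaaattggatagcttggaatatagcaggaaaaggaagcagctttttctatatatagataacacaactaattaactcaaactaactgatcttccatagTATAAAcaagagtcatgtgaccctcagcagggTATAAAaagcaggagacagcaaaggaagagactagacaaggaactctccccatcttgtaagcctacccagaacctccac
Krt7 promoter: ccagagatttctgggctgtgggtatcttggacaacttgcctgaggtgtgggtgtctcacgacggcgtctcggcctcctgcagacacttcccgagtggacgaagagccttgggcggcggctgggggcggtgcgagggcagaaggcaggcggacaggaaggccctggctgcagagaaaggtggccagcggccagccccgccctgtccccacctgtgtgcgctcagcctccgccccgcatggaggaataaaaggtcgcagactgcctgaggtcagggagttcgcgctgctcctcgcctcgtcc
RefSeq promoters were matched for 83 of the 105 members, 68 of them within 10 bp of the start in the deposited tables. TATAAA was in 69.9% of these 83 windows and in 13.6% of all 32851 promoter windows of the table. TGANTCA was in 10 of the 83 windows (12%) and in 7.81% of all windows, and the median number of CG dinucleotides was 3 in members and 7 in all windows. Of the 8 matched members with an H3K4Me2 peak at the start in all F/F libraries, 5 held TATAAA and 3 held TGANTCA. These counts describe letters in a window and say nothing of which factor binds.

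The other 2 windows are the middle 300 bases of regions where H3K4Me2 was called in F/F only, both plus strand and both outside the annotated exons: one upstream of Krt19 (chr11:100155694-100155993, intergenic) and one upstream of Krt8 (chr15:102013632-102013931, in an intron of Gm41404). The first holds 1 TGANTCA match, in capitals (TGATTCA, not the AP-1 form), and the second holds neither motif.
Upstream of Krt19: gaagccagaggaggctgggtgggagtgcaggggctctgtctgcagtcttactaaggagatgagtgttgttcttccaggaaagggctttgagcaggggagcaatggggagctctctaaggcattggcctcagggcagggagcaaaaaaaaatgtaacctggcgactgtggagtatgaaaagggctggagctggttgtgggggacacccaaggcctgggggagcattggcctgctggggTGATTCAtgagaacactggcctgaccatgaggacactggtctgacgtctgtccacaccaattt
Upstream of Krt8: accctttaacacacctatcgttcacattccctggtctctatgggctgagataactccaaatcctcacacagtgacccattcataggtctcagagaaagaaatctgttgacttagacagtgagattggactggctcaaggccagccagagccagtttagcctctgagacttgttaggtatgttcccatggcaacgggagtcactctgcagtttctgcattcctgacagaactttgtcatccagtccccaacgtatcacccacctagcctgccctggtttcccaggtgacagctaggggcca
TGANTCA was in 4 of the 9 such windows in the keratin clusters, in 26.2% of the 1543 such windows in the genome and in 19.8% of the windows of all 74096 H3K4Me2 regions on the assembled chromosomes. The windows at the Krtap2-4 start, upstream of Krt32 and 12871 bp upstream of Krt19, not printed here, each held TGAGTCA, an AP-1 form. How often the AP-1 form occurred over all regions was not counted.

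Each library held 26714377 to 49990775 recovered reads. The FC/FC H3K4Me2 library NGS-6282 carries the H3K4Me1 antibody number in its label. Over all genes its values correlated best with the other H3K4Me2 libraries (Spearman 0.99 to 0.992) and less with H3K4Me3 (0.939 to 0.95) and H3K4Me1 libraries (0.822 to 0.857). The filtered H3K4Me2 calls and the lost cluster regions are given with and without it. For H3K4Me2 minus H3K4Me1 only ranges over the libraries left out are given. The fit with no filter and the counts of peaks at start sites were not repeated without it. Of 12 fibroblast markers, 12 passed the H3K4Me2 filter, with summed RPKM of 73.7 to 75.4 in F/F and 74.6 to 79.5 in FC/FC. Of 10 epithelial markers, 4 passed, with summed RPKM of 10.01 to 11.5 and 9.18 to 11.9. Among these Cdh1, which encodes E-cadherin, fell by 0.49 on the log2 scale for H3K4Me2 (limma, adjusted p = 0.0328). The other tested epithelial markers were not called: Esrp2, Ovol1 and Cldn7 gave -0.008, 0.055 and 0.058. Whether the Cdh1 difference has a part in the keratin values was not tested.

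H3K4 methylation was low over most members. RPKM is reads per kilobase of transcript, 500 bp flanks included, scaled to the library's mapped reads. A gene was tested for a mark if it was above 1 RPKM in at least 3 of its 6 libraries. The numbers that passed were 16 members for H3K4Me1, 6 for H3K4Me2 and 1 for H3K4Me3, or 15.2%, 5.71% and 0.952% of the 105, where 37.2%, 43.3% and 39.4% of all genes passed. The median member had 0.421 RPKM of H3K4Me1 in F/F, 0.0929 of H3K4Me2 and 0.181 of H3K4Me3. The marks were also placed unevenly among the clusters. No peak of any mark was called in any library in the chromosome 16 cluster or the chromosome 10 cluster, which hold keratin-associated genes of hair. On chromosome 16 the mean H3K4Me1 RPKM of a member in F/F was 0.00783 to 0.131. On chromosome 11 these means ran from 0.162 to 5.32 and on chromosome 15 from 0.209 to 2.51.

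No member had an H3K4Me3 peak within 1 kb of its start site in any of the 6 libraries, where 53.6% to 55.2% of all genes did. H3K4Me1 peaks lay at the start of 15 to 18 members per library (14.3% to 17.1%, against 46.4% to 53.9% of all genes), and H3K4Me2 peaks at 9 to 17 members (8.57% to 16.2%, against 61.9% to 63.5%). Members with an H3K4Me1 peak at the start in all 6 libraries were the simple-epithelial keratins Krt7, Krt8 and Krt19, the stratified-epithelial keratins Krt13, Krt15 and Krt80, the hair-canal keratin Krt79, and Krtap1-4, Krtap1-5, Krtap2-4, Krtap3-2, Krtap4-2, Krtap4-7 and Krtap5-5. H3K4Me2 was called at the start in all 6 libraries for Krt7, Krt13, Krt79, Krt80, Krtap1-5, Krtap3-2 and Krtap4-2.

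Krt10, a type I keratin of the suprabasal epidermis, was the exception to the low levels. Its H3K4Me3 RPKM was 8.29, 10.4 and 9.74 in F/F and 8.06, 9.91 and 8.69 in FC/FC. The groups overlapped, and the difference of -0.09 on the log2 scale (SE 0.10, 95% interval -0.33 to 0.15, limma adjusted p = 0.991) was within the spread of the libraries. The next highest members for H3K4Me3 were Krtap1-5, with a mean of 0.689 in F/F and 0.510 in FC/FC, then Krtap4-2, with 0.445 and 0.317, and Krtap12-1.

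The Krt10 signal did not lie at the Krt10 start site. The H3K4Me3 region (chr11:99384645-99387732, score 3100 in all 6 libraries) began 1632 bp downstream of the start and covered exons 3 to 8 of the 8 exons of this minus-strand gene. H3K4Me2 covered a similar stretch (chr11:99384170-99388012, score 3100 in all 6 libraries), and H3K4Me1 a part of it. A score is -10 log10 of the peak caller's p-value, and 3100 was the highest in these regions. The next pair of sequences sets the Krt10 promoter (chr11:99389315-99389614, minus strand) beside the middle of the H3K4Me3 region (chr11:99386039-99386338, plus strand), with CG dinucleotides in capitals. The promoter holds 2 and the middle window 43. Of the middle window, 231 bases lie in exon 7 and the rest in the intron before it.
Krt10 promoter: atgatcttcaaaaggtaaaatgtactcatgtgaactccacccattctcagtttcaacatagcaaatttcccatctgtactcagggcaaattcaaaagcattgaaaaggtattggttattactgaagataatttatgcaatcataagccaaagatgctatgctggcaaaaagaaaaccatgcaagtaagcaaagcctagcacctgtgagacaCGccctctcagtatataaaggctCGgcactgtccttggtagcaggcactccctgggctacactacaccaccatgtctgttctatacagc
Krt10 H3K4Me3 region: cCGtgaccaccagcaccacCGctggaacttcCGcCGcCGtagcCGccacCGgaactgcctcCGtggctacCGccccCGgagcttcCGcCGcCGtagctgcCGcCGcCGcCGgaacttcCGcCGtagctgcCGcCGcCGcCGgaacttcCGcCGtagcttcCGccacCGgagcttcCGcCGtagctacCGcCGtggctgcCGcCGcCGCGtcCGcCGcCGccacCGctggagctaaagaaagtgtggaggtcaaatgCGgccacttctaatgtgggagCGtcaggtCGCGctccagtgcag

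**Figure D1:**
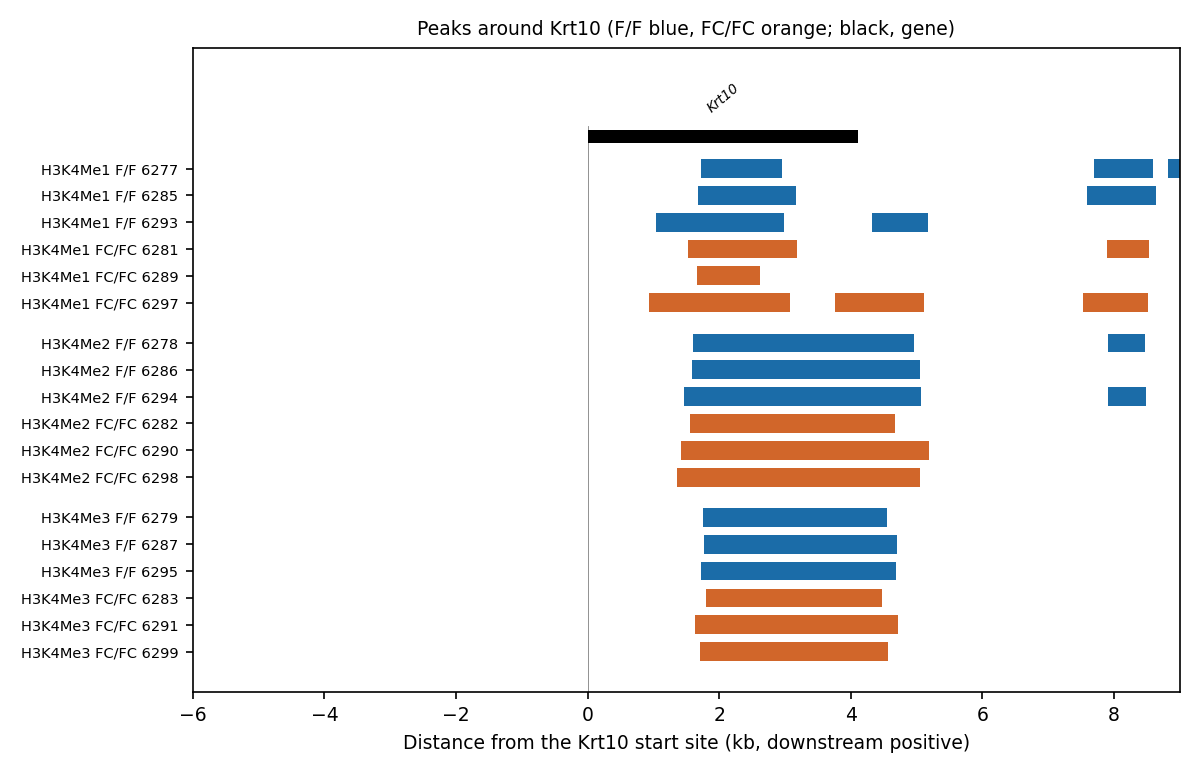
Peaks of the 3 marks around Krt10 in each library (F/F blue, FC/FC orange), against distance from the start site in kb, downstream positive. Every H3K4Me3 and H3K4Me2 peak over the gene begins more than 1 kb downstream of the start site, and none reaches it.

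For H3K4Me2, Krt10 had 9.20, 8.98 and 8.96 RPKM in F/F and 9.99, 10.8 and 10.3 in FC/FC. Every FC/FC library was above every F/F library, by 0.19 on the log2 scale (SE 0.04, limma adjusted p = 0.0721), which did not pass the threshold of 0.05. Without NGS-6282 it was 0.22 (adjusted p = 0.0147). The median difference over all genes tested for H3K4Me2 was 0.07. For H3K4Me1 it had 1.39, 1.49 and 1.44 in F/F and 1.78, 1.49 and 1.81 in FC/FC (0.22, SE 0.08, adjusted p = 0.140).

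Krtap2-4, a keratin-associated gene of the hair shaft, had the largest H3K4Me2 difference of the members tested. Its H3K4Me2 RPKM was 1.08, 1.12 and 1.06 in F/F, from 72, 96 and 94 reads, and 0.572, 0.547 and 0.552 in FC/FC, from 33, 50 and 42 reads. The groups did not overlap, and the FC/FC mean was 0.512 of the F/F mean. It fell by 0.85 on the log2(RPKM + 0.1) scale, which understates changes at low levels (SE 0.05, 95% interval -0.96 to -0.74, limma adjusted p = 0.00264). Krtap2-4 passed the filter only through its F/F libraries, which selects for a difference, and the fit with no filter called it too (adjusted p = 0.00819). Over the other settings its adjusted p ran from 0.000954 to 0.0507, the lowest without NGS-6282 and the highest without the F/F library NGS-6294. In bulk chromatin, fewer cells that carry a mark and less of it per cell cannot be told apart.

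Krt7, a type II keratin of simple epithelia, was the other member called. Its H3K4Me2 RPKM was 1.10, 1.04 and 1.04 in F/F and 0.836, 0.751 and 0.691 in FC/FC, and the groups did not overlap. It fell by 0.44 on the log2 scale (SE 0.07, limma adjusted p = 0.0346). Krt7 also passed the filter only through F/F. Among the fits that left out a library it was called only without NGS-6282 (adjusted p = 0.00451), and its adjusted p in the others ran from 0.106 to 0.181.

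Over all 9986 genes tested for H3K4Me2, 1.55% were called lower and 0.591% higher in FC/FC. Among the 6 members tested, 2 were called lower and none higher, and the median difference of the 6 was -0.40. Both called members passed the filter only through F/F, which pulls this count and median toward lower values in FC/FC. With no filter the median over all members was -0.06. Without NGS-6282, 4 of the 6 tested members were lower (Krt7, Krtap1-5, Krtap2-4 and Krtap4-2) and Krt10 was higher. However, 847 and 2105 genes in all were then lower and higher. Without the F/F library NGS-6294 no member and no gene was called.

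The 3 remaining tested members lie with Krtap2-4 in the keratin-associated block of chromosome 11. Krtap1-5 had the highest H3K4Me2 of the block, at 5.03, 4.98 and 4.32 RPKM in F/F and 2.77, 3.65 and 4.10 in FC/FC. The groups did not overlap, but the FC/FC libraries spread widely (-0.45, SE 0.14, limma adjusted p = 0.105). Krtap4-2 had 2.41, 2.65 and 2.41 in F/F and 1.98, 1.99 and 2.26 in FC/FC, again without overlap (-0.25, SE 0.07, adjusted p = 0.0839). Krtap1-4 had 1.89, 2.21 and 2.17 in F/F and 1.27, 1.57 and 2.0003 in FC/FC, and its groups overlapped (-0.37, SE 0.15, adjusted p = 0.155). In each of these, NGS-6282 was the lowest library. Krtap1-4 and Krtap1-5 share 1 H3K4Me2 region (chr11:99580061-99582840). How reads were split between related members of this family was not tested.

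**Figure D2:**
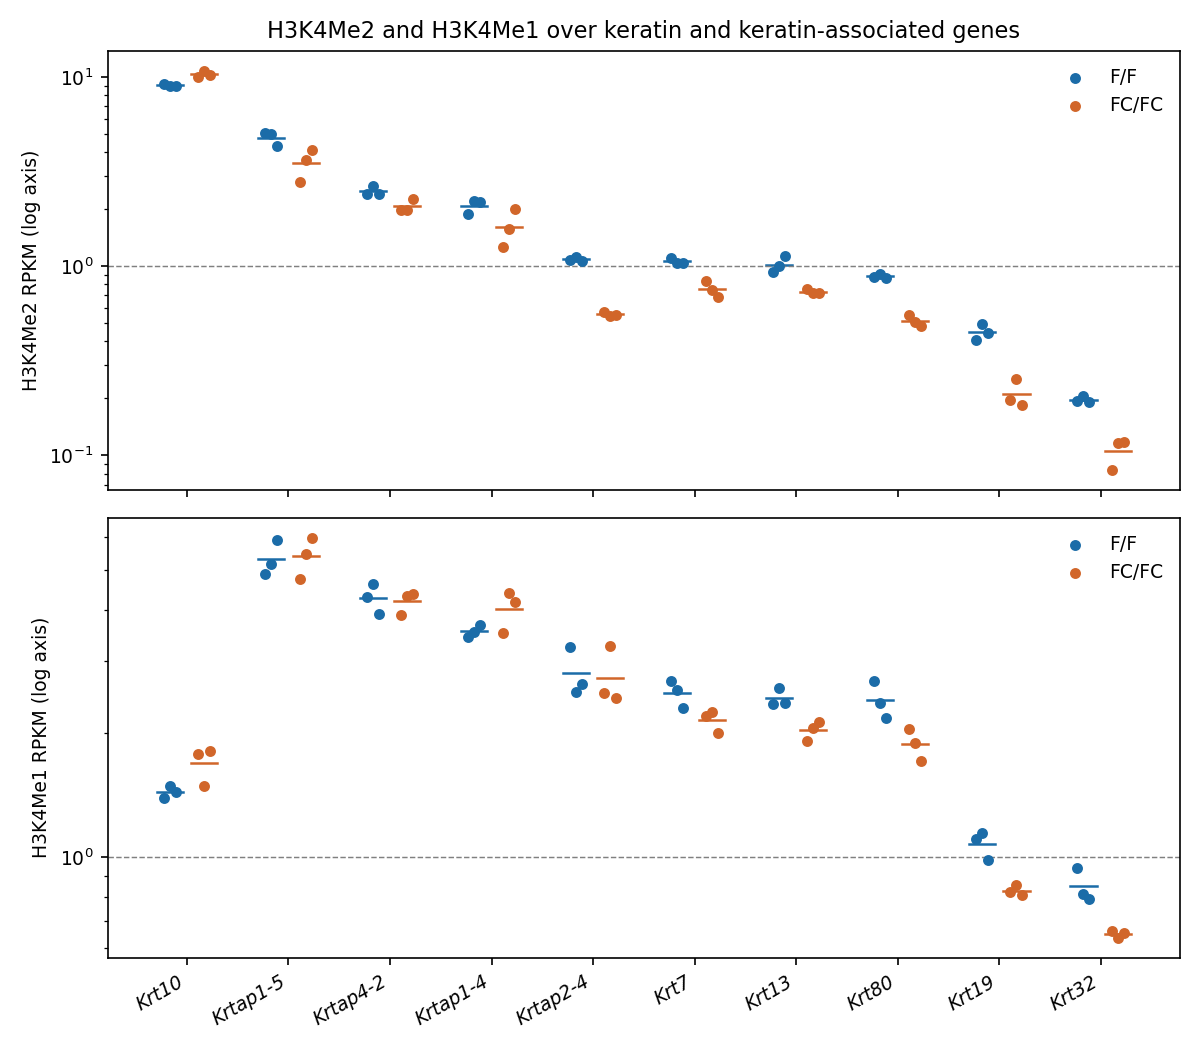
H3K4Me2 (top) and H3K4Me1 (bottom) RPKM on log axes for 10 members, 1 point per library with bars at the group means (F/F blue, FC/FC orange) and a dashed line at the filter of 1 RPKM. For Krtap2-4 the H3K4Me2 points of FC/FC sit between 0.547 and 0.572, below all F/F points, while its H3K4Me1 points overlap.

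Over all 105 members, whether or not they passed the filter, H3K4Me2 was lower in every FC/FC library than in every F/F library for 18, where 12.7% of all genes did so. It was higher without overlap for 2 members, Krt10 and Krtap19-9b, where 17.3% of all genes were. In the fit with no filter, which called 1.67% of 23043 genes lower, 6 members were called lower: Krtap2-4, Krt7, Krt19, Krt80, Krt13 and Krt32, the last named after its values were seen. Krt19, the smallest type I keratin and one of simple epithelia, had 0.405, 0.493 and 0.442 RPKM in F/F and 0.197, 0.252 and 0.185 in FC/FC (-0.81, SE 0.10, limma adjusted p = 0.0276). Krt80, a type II keratin of many epithelia, had means of 0.884 ± 0.0267 in F/F and 0.514 ± 0.0343 in FC/FC (SD, n = 3), a log2 difference of -0.68 (limma adjusted p = 0.0156). Krt13, a mucosal type I keratin, had 1.02 ± 0.102 and 0.734 ± 0.0205, a difference of -0.42 (limma adjusted p = 0.0427). The hair keratin Krt32 had 0.197 ± 0.00803 and 0.106 ± 0.0197, a difference of -0.53 (limma adjusted p = 0.0363). Krtap4-7 and the hair-follicle keratin Krt75, which with Krt13 were the highest members below the filter, were not called (-0.20 and -0.59, limma adjusted p = 0.257 and 0.102). Over all 105 members the median difference in this fit was -0.06, and over all genes it was 0.04.

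For H3K4Me1 no gene was called (0% lower and 0% higher of 8567 tested, limma), although 2144 had an unadjusted p under 0.05, 6 of them among the 16 members tested. Limma-voom on the recovered reads called 589 genes lower and 119 higher, and 1 member, Krt80, lower. Of the 16 members, 13 were lower and 3 higher, with a median of -0.11 against 0.00 for all genes tested, of which 51.0% were lower. With no filter, 52 of the 105 members and 34.9% of all genes were lower, with medians of 0.000992 and 0.0562. Krtap2-4 had 3.25, 2.52 and 2.63 H3K4Me1 RPKM in F/F and 2.50, 3.27 and 2.43 in FC/FC, and the groups overlapped (-0.04, SE 0.12, 95% interval -0.32 to 0.24, adjusted p = 0.875). Krt80 had 2.68, 2.37 and 2.18 in F/F and 2.05, 1.90 and 1.72 in FC/FC (-0.34, SE 0.09, adjusted p = 0.0868). Krt13 had 2.35, 2.57 and 2.37 and then 1.92, 2.06 and 2.13 (-0.24, SE 0.06, adjusted p = 0.0822). For both, every FC/FC library was below every F/F library.

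Krt7 gave -0.21 for H3K4Me1 (adjusted p = 0.126), and Krtap1-5, Krtap4-2 and Krtap1-4 gave 0.02, -0.03 and 0.17. The other tested members were Krt10 (given above), Krt15, Krt75, Krt79, Krtap1-3, Krtap3-1, Krtap3-2, Krtap4-7 and Krtap5-5, with adjusted p-values of 0.146 to 0.867 for those after Krt10. Just below the filter were Krt19, at 1.11, 1.14 and 0.981 RPKM in F/F and 0.822, 0.853 and 0.809 in FC/FC, Krt33a and Krt81. Every FC/FC library was below every F/F library in 14 members for H3K4Me1, where 9.49% of all genes were, and above it in 5, where 22% of all genes were. The 14 included both chains of the simple-epithelial pair: Krt8, with 0.733, 0.718 and 0.698 in F/F and 0.471, 0.489 and 0.480 in FC/FC, and Krt18, with 0.622, 0.704 and 0.579 and then 0.492, 0.554 and 0.465. Neither was called in the unfiltered fit (adjusted p = 0.122 and 0.140). Krt18 was named as the other chain of this pair, outside the naming rules given below. Its H3K4Me2 peak at the start was called in 1 F/F and 2 FC/FC libraries.

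Because each H3K4Me2 library shares an H3 control with an H3K4Me1 library, the difference of the 2 marks on the log2 scale could be compared between genotypes. This comparison was added after the values were seen. For Krtap2-4, H3K4Me2 minus H3K4Me1 was -1.50, -1.10 and -1.24 in F/F and -1.95, -2.38 and -1.96 in FC/FC. The groups did not overlap, and the change of -0.82 (SE 0.13) had a limma adjusted p of 0.0524. For Krtap1-4 it was -0.83, -0.66 and -0.73 in F/F and -1.40, -1.43 and -1.02 in FC/FC, also without overlap (-0.54, SE 0.10, adjusted p = 0.0630). Neither passed the threshold. Of 6942 genes tested, 0.144% were called lower and 0% higher. Centred on library medians, both members were called (adjusted p = 0.0283 and 0.0440), with 52 genes lower in all. Krt10 gave -0.03 (adjusted p = 0.970), and Krt7, Krtap1-5 and Krtap4-2 gave -0.23, -0.47 and -0.22 (adjusted p = 0.266, 0.175 and 0.266). For H3K4Me3 no gene was called in either direction (0% lower and 0% higher of 9073, limma), with 338 at an unadjusted p under 0.05.

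Peaks at the start sites gave a second view of these genes. The authors called peaks in each library against its own H3 library. Krtap2-4 had an H3K4Me2 peak at its start in the 3 F/F libraries, scored 97.0, 142 and 164. No FC/FC library had one. Krt19 also had one in the 3 F/F libraries only, with 265, 228 and 309. A separate H3K4Me2 region 1113 bp upstream of the Krt19 start, outside the 1 kb window, had a peak in all 6 libraries. It scored 1037, 1066 and 1576 in F/F and 387, 477 and 434 in FC/FC. No member gained a peak at the start. Among the 14925 genes with an H3K4Me2 peak at the start in any library, 0.161% had one in every F/F library but no FC/FC library, and 0.107% the reverse, and the 2 members were 2 of 18. For H3K4Me1 no member of 21 changed in this way, with 0.207% of 13991 genes doing so and 0.736% the reverse. Members and all genes were not matched for peak score in these counts. The H3K4Me1 peaks of Krtap2-4 and Krt19 were called in all 6 libraries, at scores of 134 to 415 for Krtap2-4 and 455 to 1453 for Krt19. For Krt19 these H3K4Me1 scores were 1059, 1014 and 1453 in F/F and 653, 554 and 455 in FC/FC. A score also depends on depth, and the H3K4Me1 FC/FC libraries were the deeper ones.

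H3K4Me2 peaks at the start of Krt8, of Krt15, a basal keratin, and of Krt75, a hair-follicle keratin, were called in 2 F/F libraries and no FC/FC library. The number of members with an H3K4Me2 peak at the start was 11, 15 and 17 in F/F and 9, 11 and 10 in FC/FC. The groups overlapped at 11 (exact permutation test, two-sided p = 0.2, where 0.1 is the smallest that 3 against 3 allows). With the same number of top peaks kept in each library, the means were 11.3 ± 2.52 and 9.67 ± 1.53 (SD, n = 3), in place of 14.3 ± 3.06 and 10 ± 1. For H3K4Me1 the numbers were 18, 17 and 16 against 16, 15 and 17 (exact p = 0.5).

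**Figure D3:**
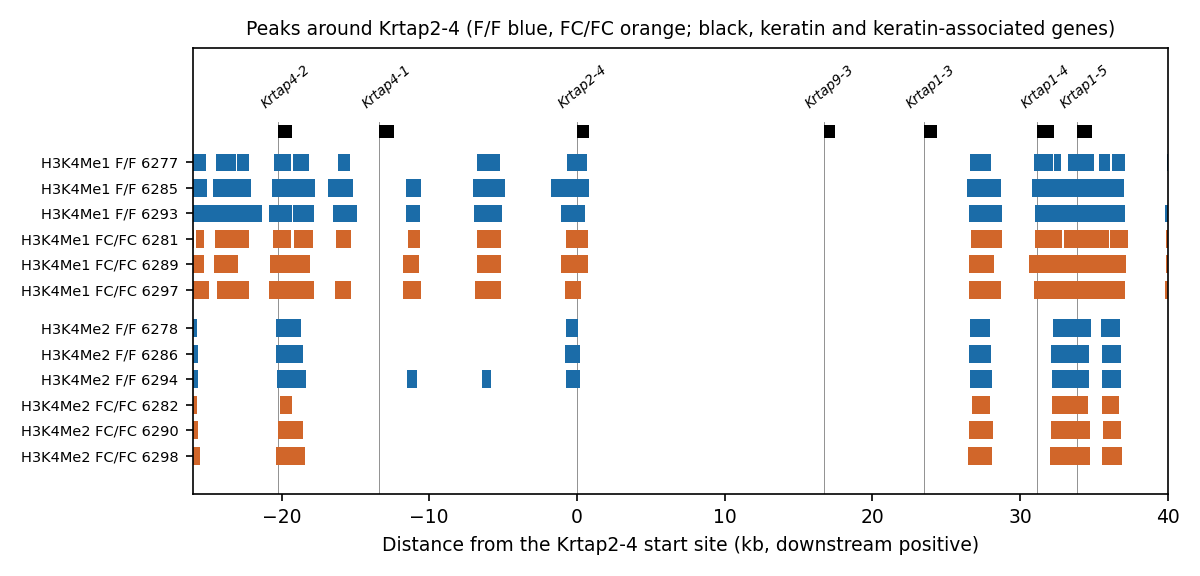
H3K4Me1 and H3K4Me2 peaks in each library across the keratin-associated block of chromosome 11, against distance from the Krtap2-4 start in kb, downstream positive (F/F blue, FC/FC orange; black bars are members). The H3K4Me2 peak at 0 is in the 3 F/F libraries and in no FC/FC library, while those at Krtap4-2 and Krtap1-5 are in all 6, as is H3K4Me1 at 0.

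The same comparison was made over whole clusters, each extended by 20 kb. Peaks of the 6 libraries of a mark were merged where they overlapped by at least 1 bp, and a region was counted as lost if every F/F library but no FC/FC library had a peak there. For H3K4Me2, 9 of 96 cluster regions were lost (9.38%) and none gained, where 2.08% of 74134 regions in the genome were lost and 0.101% gained. F/F libraries had more H3K4Me2 peaks in all (62100 to 70437 against 56112 to 58585). With the same number of top peaks kept in each library, 7 of 79 cluster regions were lost (8.86%) against 0.678% in the genome, and 1 was gained. Without NGS-6282, 9 of 94 were lost (9.57%) against 3.08% of 73494. With each library left out in turn, the genome share ran from 2.71% to 4.88% and the cluster share from 9.57% to 13.8%. Over 1 kb from every start site, 7 of 73 cluster regions were lost (9.59%) against 2.51% of 60357, and nearer to one 2 of 23 were (8.70%) against 0.189% of 13777. Cluster and genome regions were not matched for score in these counts. Near start sites they were also unlike in H3K4Me3: no member had such a peak at its start, where 53.6% to 55.2% of all genes did. For H3K4Me1 1 of 110 regions was lost and none gained, against 0.793% and 0.43% of 114290. It lay 5858 bp downstream of the Krt18 start, with a mean score of 62.6, near the minimum of 50. For H3K4Me3 none of 6 was lost or gained, against 0.531% and 0.0645% of 20154.

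All 9 lost H3K4Me2 regions carried an H3K4Me1 peak in all 6 H3K4Me1 libraries, at scores described below. In the genome 83.5% of the 1543 lost regions did, as did 71.0% of all H3K4Me2 regions. None of the 9 carried an H3K4Me3 peak. They were 745 to 2594 bp wide, 6 on chromosome 11 and 3 on chromosome 15. By mean score the first was 9129 bp upstream of Krt19 (chr11:100155048-100156638), with scores of 190, 81.6 and 677 in F/F. The second lay over the Krt19 start (chr11:100145622-100146943), and the third 8884 bp upstream of Krt8 (chr15:102013226-102014337), with scores of 286, 111 and 339.

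The other 6, named after their values were seen, were the Krtap2-4 start (chr11:99614606-99615674), a second site 12871 bp upstream of Krt19, and sites upstream of Krt32, Krt42, Krt80 and Krt7 at 1643, 18695, 17307 and 13506 bp. So 3 of the 9 lay at or upstream of the Krt19 start, in a block that also holds Krt15 and Krt13. In that block the H3K4Me2 peak near the start of Krt13 was called in all 6 libraries, as was the one 1113 bp upstream of the Krt19 start. Sites are named by the nearest member, and some overlapped other genes. The Krt42 site overlapped an exon of Gm14206, and the Krt7 site an exon of Gm671. The Krt80 site overlapped Gm35853 and Gm671 outside their exons, and the Krtap2-4 region also overlapped Gm32730. The presence of an H3K4Me1 peak does not show that its level was kept. Scores of the merged H3K4Me1 regions over the Krt19 start and the Krt32, Krt42, Krt80 and Krt8 sites were lower in every FC/FC library. At Krt42 they were 2516, 2123 and 3100 in F/F and 1201, 690 and 932 in FC/FC. At Krtap2-4, Krt7 and the other Krt19 sites the groups overlapped. The share of all H3K4Me1 regions with lower scores in every FC/FC library was not counted. These sites were picked by their H3K4Me2 calls, so no trait of them can be read from this.

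**Figure D4:**
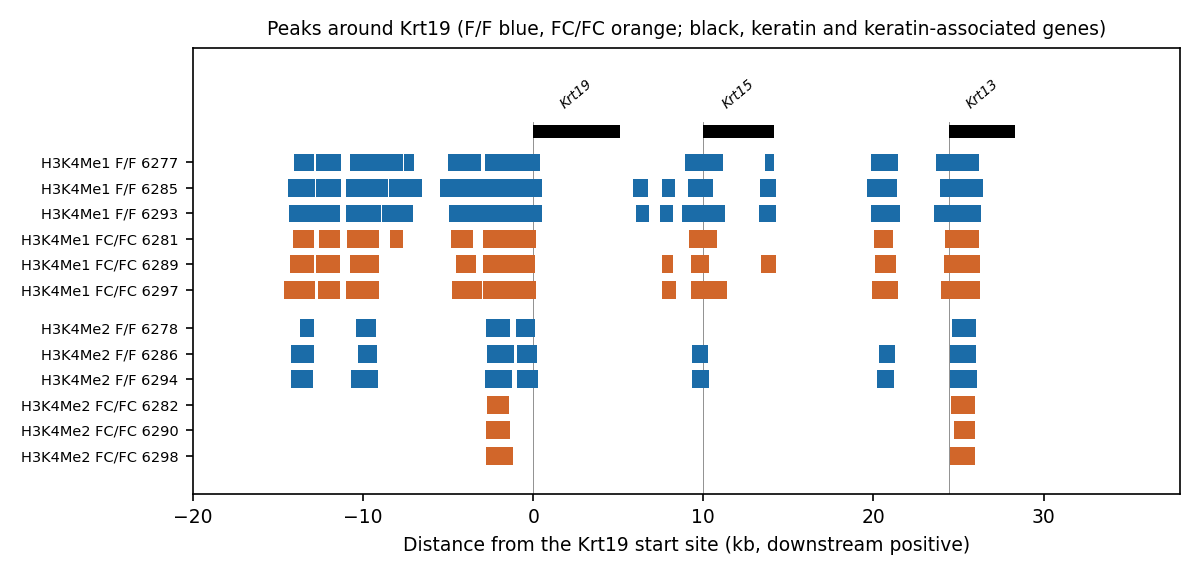
H3K4Me1 and H3K4Me2 peaks in each library from upstream of Krt19 to beyond Krt13, against distance from the Krt19 start in kb, downstream positive (F/F blue, FC/FC orange; black bars are members). The 3 lost H3K4Me2 regions, at 0 and at 9129 and 12871 bp upstream (negative distances), have F/F bars only, and H3K4Me1 bars of all 6 libraries stand over them.

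Peak numbers per cluster followed the same order. In the chromosome 11 cluster there were 39 ± 3.61 H3K4Me2 peaks per F/F library and 29 ± 1 per FC/FC library (SD, n = 3). In the chromosome 15 cluster there were 38 ± 6.56 and 27.3 ± 2.08. Neither pair of groups overlapped (exact permutation test, two-sided p = 0.1 for each, the smallest possible, and 0.25 after adjustment over 10 such tests). As a share of a library's peaks, the chromosome 11 cluster held 0.0587% in F/F and 0.0504% in FC/FC (exact p = 0.1). For H3K4Me1 the means were 60 ± 6.56 and 51.7 ± 2.08 on chromosome 11, and the groups met at 54 peaks (exact p = 0.2). The chromosome 7 cluster held 2 H3K4Me1 peaks, 1 H3K4Me2 peak and 1 H3K4Me3 peak in every library.

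**Figure D5:**
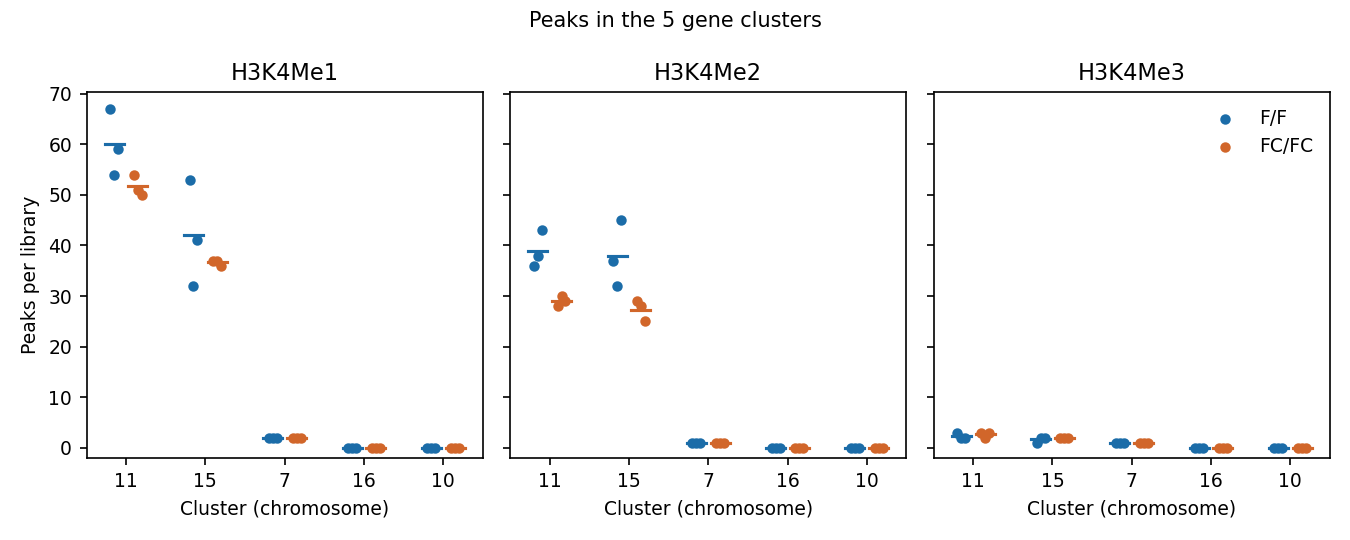
Peaks per library in the 5 clusters, which are named by chromosome on the horizontal axis, for each mark (F/F blue, FC/FC orange; short lines are group means). H3K4Me2 points of FC/FC lie at 28 to 30 on chromosome 11, below F/F at 36 to 43, and all points of chromosomes 16 and 10 are at 0.

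Gene lists that work with keratins were counted in the same fits. Of 20 desmosome and plakin genes, which anchor keratin filaments, 5 were tested for H3K4Me2 and none was called (median -0.21). Of 46 cornified envelope genes, 3 were tested, and 1 was lower and none higher (median 0.14). Of 16 other intermediate filament genes, vimentin and the lamins among them, 7 were tested and none was called (median -0.02). No gene of these 3 lists was called for H3K4Me1 or H3K4Me3.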

How the data were processed

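ChIP-seq libraries of H3K4Me1, H3K4Me2 and H3K4Me3 were grouped by genotype from the labels. Per the submitters' processing notes the authors used CASAVA 1.4, BWA 0.7.10, MACS 1.4.2 and mm10. The authors deposited RPKM values per RefSeq transcript with 500 bp flanks, and peaks with a deposited score of -10 log10 p (at least 50), called per library against H3. Whole reads were recovered from the RPKM values (within 0.01 of a whole number for 100% of values). Of each gene, the longest transcript was kept.

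Each mark was tested by limma 3.58.1 (R 4.3.3, with mean-variance trend, two-sided) on log2(RPKM + 0.1), for genes above 1 RPKM in at least 3 of 6 libraries, with Benjamini-Hochberg adjustment over all genes tested and a threshold of 0.05. H3K4Me2 minus H3K4Me1 used the same fit on differences within an H3 control. Peaks were merged with bedtools 2.31.1. The scripts were tested on simulated data. Alternatives were another pseudocount, no filter, the shortest transcript, quantile normalization, centring, no trend, limma-voom on recovered reads, other peak rules and leaving out each library. Libraries were numbered singly, and no label pairs F/F with FC/FC. The members, gene lists and tests were chosen with earlier results of these data known. Named were Krtap2-4, Krt19, members passing the filter for any mark, members with a peak at the start in all libraries of a genotype, the 3 highest members below the filter per mark, and at most 3 lost or gained regions per mark by mean score. Sequences are from RefSeq (GRCm38.p6). Krt83, Krt81 and Krt86 lie inside the listed Krt85 transcript and share its reads.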

Additional observations from a re-analysis of the deposited data

How the results depend on the processing

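Depth limits members under the filter, where a start site had few reads. Quantile normalization, centring on library medians and limma-voom called 59, 71 and 589 genes lower for H3K4Me1, with 14, 16 and 119 higher. For H3K4Me2 they called 337, 406 and 262 lower and 28, 28 and 107 higher. Limma-voom called 1 member lower for H3K4Me1. With no filter, 6 members and 384 genes were lower for H3K4Me2. The median difference of the members tested moved for H3K4Me1 to -0.0725 with a pseudocount of 1 and 0.000992 with no filter, and for H3K4Me2 to -0.239 and -0.0627. With quantile normalization the H3K4Me1 difference of Krtap4-2 was 0.0299. Centring gave 2 members and 52 genes lower for H3K4Me2 minus H3K4Me1. With scores of at least 100, 0 H3K4Me1 cluster regions were lost, and with equal peak numbers 1 H3K4Me2 region was gained. Apart from construction, such as more genes tested with no filter, the cause was not tested.

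With 1 library left out, H3K4Me2 calls ranged from 0 to 847 lower and 0 to 2105 higher, for members 0 to 4 lower and 0 to 1 higher, the highest without NGS-6282. The member median ranged from -0.455 to -0.257 for H3K4Me2, -0.125 to -0.0783 for H3K4Me1 and -0.383 to -0.31 for H3K4Me2 minus H3K4Me1. Lost cluster regions ranged from 9 to 13 for H3K4Me2 and 2 to 6 for H3K4Me1, with 0 to 1 gained. H3K4Me3 calls ranged from 0 to 1 lower. For H3K4Me2 minus H3K4Me1, 0 to 5 genes and 0 to 1 members were lower. Differences that changed sign with 1 library left out were, for H3K4Me1, Krtap1-5 (-0.0567 to 0.108), Krtap2-4 (-0.169 to 0.0709), Krtap3-2 (-0.313 to 0.0249), Krtap4-2 (-0.0891 to 0.0303) and Krtap5-5 (-0.172 to 0.0506), and, for H3K4Me2 minus H3K4Me1, Krt10 (-0.142 to 0.036).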
